A study of Rattus norvegicus with 8 samples.

Results

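The genes described here encode the muscle side of the neuromuscular junction: Chrna1, Chrnb1, Chrnd, Chrne and Chrng, the subunits of the muscle acetylcholine receptor, together with Musk, Ache and Ncam1. Members were all probes whose gene symbol in the platform annotation is 1 of these 8, which gave 7 of the 22523 probes on the array, 1 each for 7 of the 13337 genes named there. No probe carries the symbol Ache, so acetylcholinesterase was not analysed here. Thigh skeletal muscle came from 8 Han Wistar rats, an outbred laboratory stock. Compound 197, a code name whose labels call it a sulfonyl isoxazoline, was fed at 150 ppm for 28 days to 4 rats. The other 4 were controls on standard laboratory chow, and each rat gave 1 Illumina rat expression beadchip. Sex, age, cage and slide are stated in none of the sources used here. Per its title, the series concerns toxicity to mitochondria.

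Motor nerve endings release acetylcholine onto a small patch of each muscle fibre, where the receptor, a channel built of several subunits, opens and starts contraction. In mature rodent muscle the nuclei beneath the nerve ending transcribe the receptor genes, and the epsilon subunit (Chrne) takes the place that the gamma subunit (Chrng) holds in the fetal receptor. Muscle that has lost its nerve is known to transcribe Chrna1, Chrng, Musk and Ncam1, among other genes, along the whole fibre. Synaptic transcription of these genes depends on signals from the nerve that act through MuSK, the receptor kinase encoded by Musk, and on Ets-family factors such as GABP.

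As a check of the tissue, all 12 probes of skeletal muscle fibre markers, among them those of Ckm, Acta1 and Actn3, were above background on all 8 arrays. A probe is called above background where its deposited detection p-value was under 0.05. Between 36.9% and 46.6% of probes were above background on an array. The number was 8988 ± 498 on control arrays and 10109 ± 328 on compound 197 arrays (SD, n = 4 each), with a two-sided exact permutation p of 0.0286, the smallest that 4 against 4 can give. On average, the dimmest probe of an array read 60.4 ± 1.03 in controls and 53.8 ± 1.91 in treated rats (SD, n = 4 each, exact permutation p = 0.0286), so the floor of the arrays differed between the groups along with the number detected. Its part in differences of detection, such as those of Lrp4 and Fbxo30, was not tested. Muscle is a mixture of cells, and fewer cells of a type and less RNA per cell cannot be told apart in these values.

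Of the 7 member probes, 3 were above background on all 8 arrays (Chrnb1, Chrnd and Chrne), Chrna1 on 7, Chrng on 4, Musk on 1 and Ncam1 on none. A probe was tested if it was above background on at least 4 arrays, which 5 of the 7 members and 9873 probes in all were. Chrne and Chrnd were lower in the muscle of rats fed compound 197, and no member was called higher. The other 3 tested members, Chrna1, Chrnb1 and Chrng, did not pass. Of all tested probes 40.5% were called, with 24.2% lower and 16.3% higher, so 2 falls among 5 members stand against a background of about 1 in 4. All 5 tested members had a fitted change below 0, as did 66.5% of tested probes. Calls come from limma fitted across all tested probes, with Benjamini-Hochberg adjustment over all of them and a threshold of 0.05. Changes are log2 values, compound 197 minus control, ± SE.

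Chrne, the adult-type epsilon subunit, had raw intensities of 665.3, 381.2, 366.7 and 424.8 on control replicates 1 to 4. On compound 197 replicates 1 to 4 its raw intensities were 373.0, 185.9, 196.8 and 104.1. The first of these treated rats lay at the level of the lower controls, and the last lay just above the background limit of its array (deposited detection value 0.0291). After background correction and quantile normalization the log2 levels were 9.14, 8.29, 8.54 and 8.50 in controls and 8.09, 6.99, 6.83 and 5.37 in treated rats. On this scale all 4 treated arrays were below all 4 controls, as they were for 23.8% of tested probes (16.2% had all 4 above), whereas the raw intensities overlapped. The group means were 8.62 ± 0.37 and 6.82 ± 1.12 (SD, n = 4 each), and Chrne fell by 1.80 ± 0.49, or 3.48-fold (adjusted p = 0.0175, limma). Treated rats thus varied more than controls. Of all tested probes, 0.415% had a change as low or lower. The fall passed on leaving out each array in turn, with adjusted p from 0.00554 to 0.0454. With median scaling between arrays in place of quantile normalization the change was -1.30 and did not pass (adjusted p = 0.111, limma).

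Chrnd, the delta subunit, which is part of the fetal and the adult receptor alike, had raw intensities of 1017, 295.4, 586.1 and 515.6 on control replicates 1 to 4. In treated rats they were 340.7, 236.5, 294.9 and 297.2. Control replicate 2 lay among the treated rats, and the other 3 controls were above all of them. The log2 levels were 9.78, 7.82, 9.39 and 8.87 in controls and 7.91, 7.51, 7.71 and 7.57 in treated rats, with means of 8.97 ± 0.85 and 7.68 ± 0.18 (SD, n = 4 each). Chrnd fell by 1.29 ± 0.36, or 2.44-fold (adjusted p = 0.021, limma), a change that 1.68% of tested probes matched or exceeded downward. Here the controls were the more variable group. The call was lost without control replicate 3 (-1.15, adjusted p = 0.0526), compound 197 replicate 2 (-1.23, 0.0541) or compound 197 replicate 4 (-1.25, 0.0563), all from limma. It was also lost with median scaling (-0.69, 0.199), cyclic loess (-1.10, 0.0577) or no detection filter (0.0548).

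**Figure D1:**
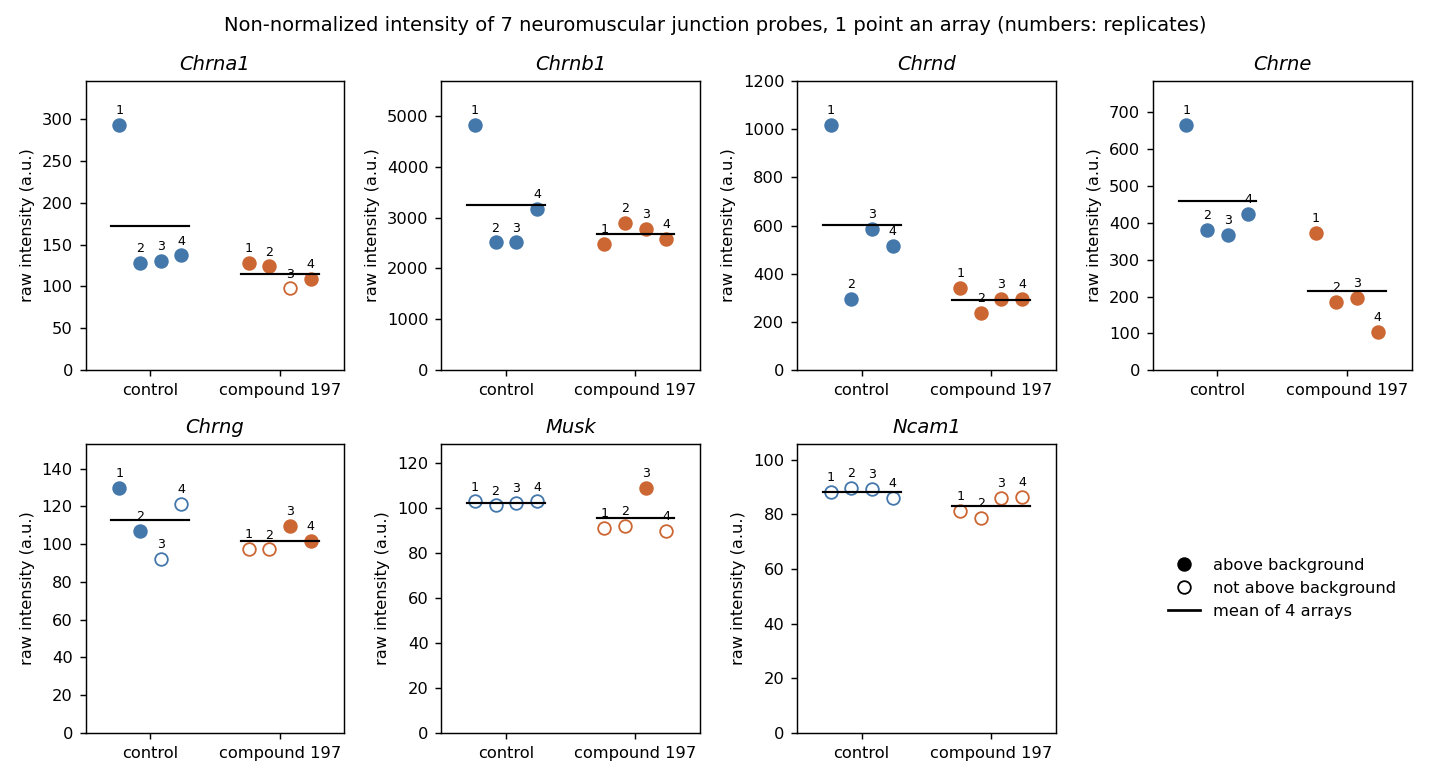
Raw, non-normalized intensity (arbitrary units, axes from 0) of the 7 member probes on each array, with control arrays left and compound 197 arrays right, replicate numbers above the points and a bar at the mean of 4 arrays. Control replicate 1 is the highest control for all 5 receptor subunits, and open points, not above background, fill the panel of Ncam1 and all but 1 point of Musk.

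The promoters of these 2 genes are shown because they are the members that passed, and because a short Ets-factor motif, the N-box, is known from rodents to drive their synaptic transcription. Each run holds the 250 bases before and the 50 bases after the annotated start of the gene, from RefSeq on the GRCr8 build. Capitals mark matches to the E-box (CANNTG), the motif of myogenic factors such as myogenin, and to the N-box (CCGGAA), searched on both strands.
Chrnd promoter, chr9:95310066-95310365, plus strand: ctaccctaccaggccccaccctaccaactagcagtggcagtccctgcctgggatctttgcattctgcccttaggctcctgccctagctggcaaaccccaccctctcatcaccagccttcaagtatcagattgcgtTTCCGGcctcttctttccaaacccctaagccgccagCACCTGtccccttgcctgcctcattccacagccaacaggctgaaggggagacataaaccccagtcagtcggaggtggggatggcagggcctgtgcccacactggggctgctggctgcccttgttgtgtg
Chrne promoter, chr10:55834105-55834404, minus strand: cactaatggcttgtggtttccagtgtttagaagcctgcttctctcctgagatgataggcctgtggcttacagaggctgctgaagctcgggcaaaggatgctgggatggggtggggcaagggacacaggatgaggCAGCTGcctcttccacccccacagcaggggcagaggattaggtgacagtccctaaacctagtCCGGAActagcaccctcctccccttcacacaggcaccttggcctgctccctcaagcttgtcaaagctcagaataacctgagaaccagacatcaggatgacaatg
The N-box begins 54 bases before the start of Chrne, at position -54, as CCGGAA, and at -115 in Chrnd, where it reads TTCCGG and so lies on the opposite strand. Each promoter also holds 1 E-box, at -116 in Chrne and at -79 in Chrnd.

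Promoter windows were found for 7 of the 8 listed genes, all but Ncam1. All 7 hold an E-box, from 1 in Chrnd, Chrne and Ache to 4 in Chrng, and so do 72.1% of the 33469 promoter windows of the rat. Chrna1 and Chrnb1 hold 3 E-boxes each within the 90 bases before the start, and Musk has 3, at -188, -111 and -79. The N-box is found in 2 of the 7, Chrnd and Chrne, which is 28.6%, against 15% of all promoter windows. Since the N-box was already known from these 2 genes in rodents, its presence there was fixed in advance, and the 2 shares are no result. Sites outside the 300 bases of a window would not be seen. Of the windows without an N-box, 3 belong to tested members that did not pass (Chrna1, Chrnb1 and Chrng), 1 to Musk, which was not tested, and 1 to Ache. A match is a stretch of sequence and not a measured binding site, and its relation to the changes was not tested. No E-box match overlapped an N-box match.

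**Figure D2:**
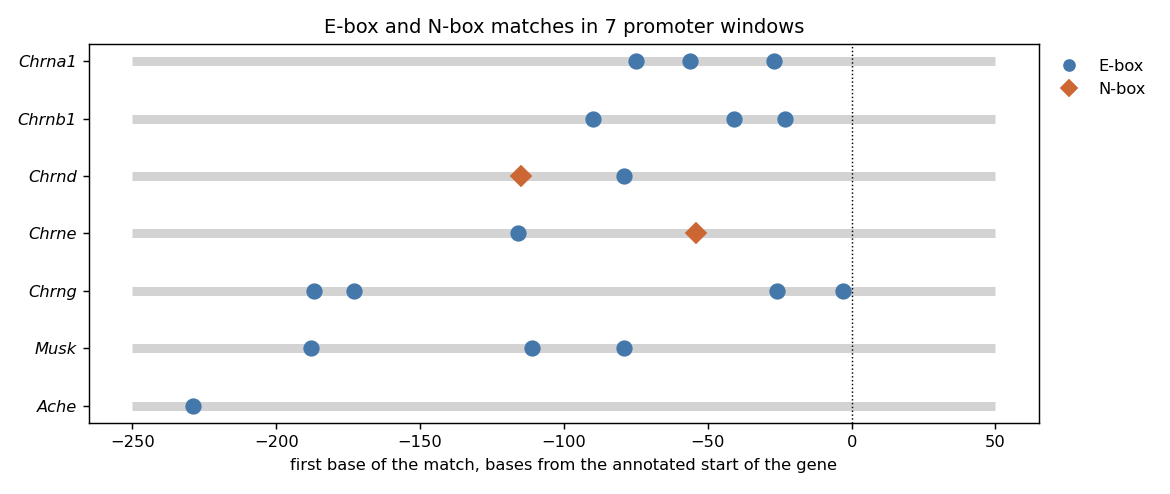
Position of E-box (circles) and N-box (diamonds) matches in the promoter windows of 7 listed genes, as the first base of the match in bases from the annotated start. Diamonds appear in the windows of Chrnd, at -115, and Chrne, at -54.

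Chrna1, the subunit that carries most of the acetylcholine binding site, was measured at raw intensities of 292.5, 127.9, 130.1 and 137.1 in controls. In treated rats the values were 128.2, 123.8, 97.72 and 109.4, of which the value of 97.72, in replicate 3, was not above background. Apart from control replicate 1, then, the raw values lay between 97.7 and 137.1, and the groups overlapped. Log2 means were 6.44 ± 0.86 and 5.62 ± 0.36 (SD, n = 4 each). The change was -0.82 ± 0.39 (95% interval -1.70 to 0.07, adjusted p = 0.124, limma). Without control replicate 1 it was -0.39 (adjusted p = 0.158, limma), and without background correction -0.48 (0.148).

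Chrnb1, the beta subunit, which is shared by the fetal and adult receptors, was far above background on every array, at 23.2 to 41.0 times the lowest raw signal called above background there. Raw intensities were 4816, 2511, 2512 and 3174 in controls and 2477, 2888, 2782 and 2573 in treated rats. The treated rats lay within a narrow band that took in the lower 2 controls. Log2 means were 11.69 ± 0.37 and 11.25 ± 0.21 (SD, n = 4 each), with a change of -0.44 ± 0.19 (95% interval -0.88 to -0.0049, unadjusted p = 0.048, adjusted p = 0.0964, limma). It passed without control replicate 2 (-0.60, adjusted p = 0.0191). With median scaling the change turned positive, at 0.15 (adjusted p = 0.723).

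Chrng, the fetal gamma subunit, was measured at raw intensities of 92.3 to 129.8 over the 8 arrays and was above background in 2 controls and 2 treated rats. The change was -0.15 ± 0.15 (95% interval -0.49 to 0.20, adjusted p = 0.462, limma), and control replicates 1 and 3 were the highest and the lowest of all arrays. Musk read 101.1 to 102.9 in controls, none above background. In treated rats it read 89.8 to 108.9, above background in replicate 3 alone. Ncam1, a cell adhesion molecule known to appear on denervated fibres, read 78.6 to 89.6 and was above background on no array. For Musk and Ncam1 no level can be given beyond "not above background", and no change was tested at this sensitivity. Among the members known to rise along denervated fibres, then, Chrng, Musk and Ncam1 lay at or near background in both groups, and Chrna1 was above background on 4 control and 3 treated arrays.

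Whether the subunits responded unequally was tested directly. The difference between 2 subunits was taken within each array and compared between the groups by a two-sided exact permutation test, for the 10 pairs of the 5 tested subunits. With 4 arrays against 4 the smallest exact p is 0.0286, which for a lone pair among 10 becomes an adjusted p of 0.286, and at least 6 pairs at that minimum are needed for an adjusted p under 0.05. A count of 0 past the threshold was therefore nearly fixed by the design, and 0 pairs had an unadjusted p under 0.05. The smallest unadjusted p was 0.0571, and the smallest adjusted p 0.19 (Benjamini-Hochberg over the 10 pairs). It was reached by Chrnb1 against Chrnd, Chrnd against Chrng and Chrne against Chrng. The change of Chrne minus that of Chrng was -1.65 on the log2 scale, that of Chrnd minus Chrng was -1.14, and that of Chrnb1 minus Chrnd was 0.85. All 10 pairs overlapped between the groups. A difference in response between subunits was thus not shown, nor was it shown that they responded alike.

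Among controls the subunits were highest on the same array, while the lowest array differed. Control replicate 1 was the highest control for all 5 subunits, and control replicate 2 the lowest for 3 of them, Chrnb1, Chrnd and Chrne. The lowest control was replicate 3 for Chrng and replicate 4 for Chrna1. How many of all tested probes had control replicate 1 as the highest control was not counted. The count thus cannot be called particular to the subunits. In treated rats no array was the highest for more than 2 subunits. For each called member, patterns were compared by centring every probe on its control mean and taking the root mean square difference of log2 levels over the 8 arrays. Nearest to Chrnd came Wfs1, an endoplasmic reticulum membrane protein, at 0.197, then Ddah1, an enzyme that degrades methylated arginines, at 0.258, and Smtnl1, a smoothelin-like muscle protein, at 0.265. Nearest to Chrne among probes with a gene name were Ddah1 at 0.740, Sult2a6, a sulfotransferase, at 0.753 and Reg3b, a secreted lectin, at 0.759. Chrnd itself ranked 14 of 9873 in likeness to Chrne, at 0.792, while Chrne ranked 1727 in likeness to Chrnd. With this centring the size of a fall weighs in the distance, and both probes had been picked as called falls. A high rank between them is therefore partly built in, and shared regulation was not tested.

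The size of the falls depended on how arrays were scaled to each other. Quantile normalization gave a median change of -0.18 over all tested probes, cyclic loess -0.01 and median scaling 0.31. The share of tested probes called lower went from 24.2% to 8.02% and 1.91%. The calls split into 1613 higher and 2386 lower with quantile normalization, 1915 and 792 with cyclic loess, and 2288 and 189 with median scaling. Relative to the median change of all probes, Chrne fell by 1.62 (adjusted p = 0.035, limma) and Chrnd fell by 1.11 (adjusted p = 0.0499). Under every scaling run the fitted changes of Chrna1, Chrnd, Chrne and Chrng stayed below 0, except that Chrng stood at 0.03 relative to the median.

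**Figure D3:**
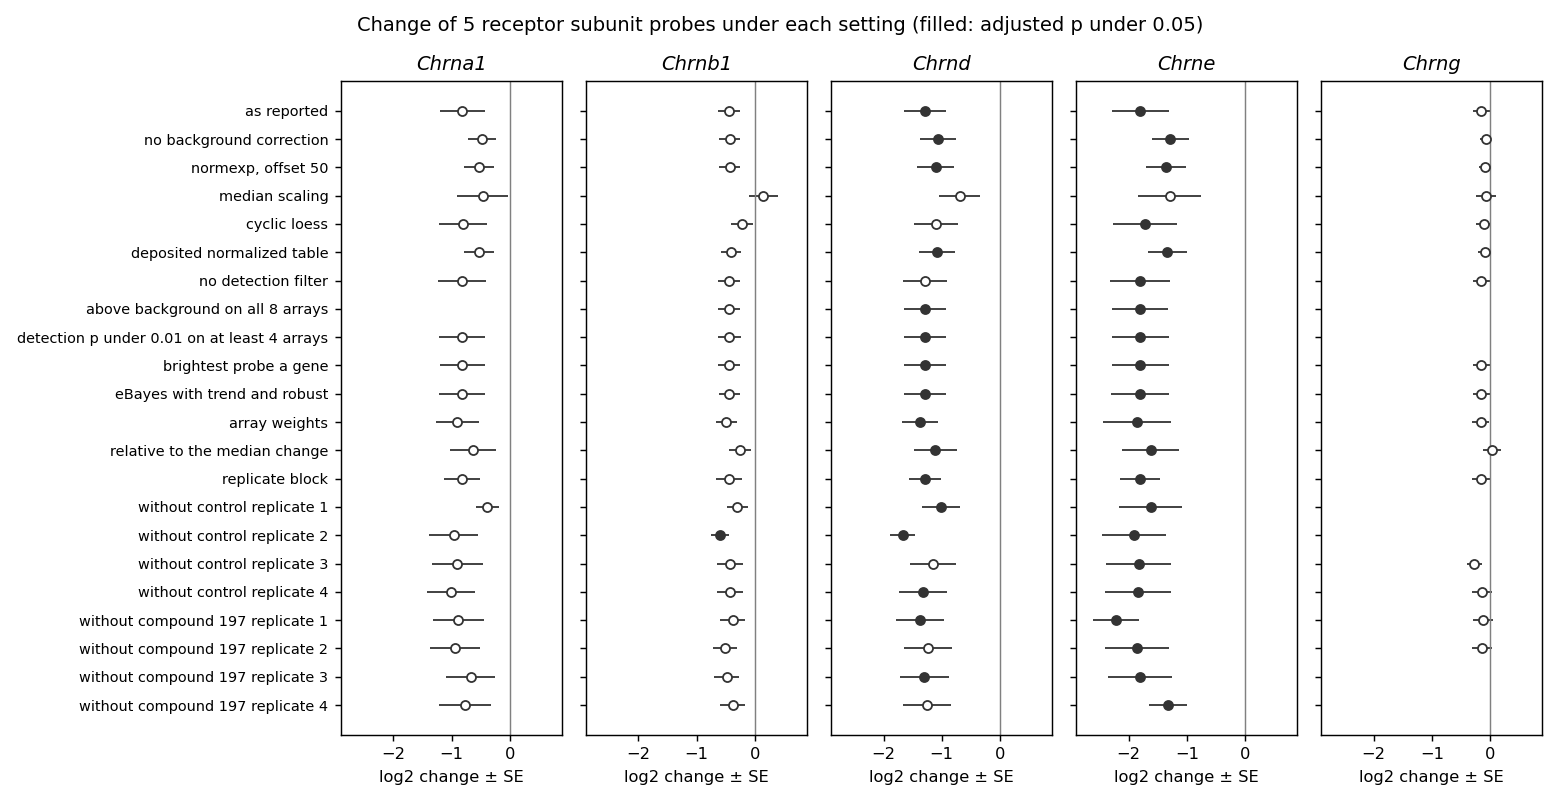
Log2 change ± SE (compound 197 minus control) of the 5 tested receptor subunit probes as reported and under 21 other settings, filled where the adjusted p was under 0.05. Chrne is filled in every setting except median scaling, Chrnd is open in 6, and Chrna1 and Chrng are open throughout; a missing point means that the probe did not pass the filter of that setting.

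Genes that build and anchor the postsynaptic apparatus moved in both directions. Of the 18 tested probes, 2 rose, 6 fell and 10 did not pass. That is 33.3% lower, against 24.2% of all tested probes, with a median change of -0.36 against -0.18. Agrn, the secreted proteoglycan that activates MuSK, went from 8.55 ± 0.20 to 8.03 ± 0.10 log2 intensity (SD, n = 4 each), a change of -0.52 ± 0.12 (adjusted p = 0.00974, limma). The falls also took in Crkl by 0.59 ± 0.10, an adaptor that binds Dok7, the MuSK activator, and 2 signalling proteins downstream of MuSK, Dvl1 by 0.52 ± 0.13 and Pak1 by 0.61 ± 0.17. Nes, the intermediate filament nestin, fell by 0.97 ± 0.27, and Lamb2, a laminin of the synaptic basal lamina, fell by 0.50 ± 0.16. The 2 rises were chaperones, Hsp90b1 of the endoplasmic reticulum by 0.94 ± 0.12 and Dnaja3, known to bind MuSK, by 0.35 ± 0.097. Rapsn, the scaffold that clusters the receptor, had a change of 0.08 ± 0.17 (adjusted p = 0.739), Dok7 of -0.23 ± 0.20 (0.385) and Colq, the collagen tail that anchors acetylcholinesterase, of -0.55 ± 0.20 (0.0579). Lrp4, the agrin receptor, was above background on 3 treated arrays and no control array, and Erbb2 and Erbb3 on none.

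Most of these falls turned on scaling, and some on the background correction. Without background correction Crkl stood at -0.34 (adjusted p = 0.00427, limma) and Pak1 at -0.35 (0.0246). With median scaling Agrn, Crkl, Dvl1, Pak1 and Lamb2 lay slightly above 0, from 0.02 to 0.07, and Nes at -0.32 did not pass (adjusted p = 0.551, limma). With cyclic loess Agrn (-0.35, 0.0684), Dvl1 (-0.32, 0.0784), Pak1 (-0.40, 0.149), Nes (-0.74, 0.0835) and Lamb2 (-0.29, 0.222) did not pass, while Crkl did (-0.39, 0.0231). Relative to the median change of all probes, only Crkl of these falls passed (-0.41, adjusted p = 0.015, limma). Agrn (-0.34, 0.0696), Dvl1 (-0.34, 0.075), Pak1 (-0.43, 0.0899), Nes (-0.79, 0.0589) and Lamb2 (-0.32, 0.17) did not pass there. The rises were larger with median scaling, at 1.501 for Hsp90b1 and 0.93 for Dnaja3. Without a detection filter Nes (0.0503) and Lamb2 (0.0559) did not pass, nor did Lamb2 with array weights (0.0518). On leaving out 1 array Agrn, Crkl, Dvl1 and Hsp90b1 passed in all 8 fits. Adjusted p rose past the threshold for Pak1 without compound 197 replicate 4 (-0.50, 0.0573), and for Nes without compound 197 replicate 2 (-0.96, 0.0503), 3 (-0.92, 0.056) or 4 (-0.92, 0.0591). The same held for Dnaja3 without compound 197 replicate 1 (0.32, 0.0661), 2 (0.33, 0.0605) or 4 (0.34, 0.0581). Lamb2 lost its call without control replicate 2 (-0.45, 0.0686), control replicate 3 (-0.44, 0.0748) or, of treated rats, replicate 1 (-0.45, 0.0902), 2 (-0.40, 0.0875) or 3 (-0.53, 0.0552).

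Regulators of synaptic and nerve-dependent transcription mostly did not pass. Of 13 tested probes, 1 rose, 2 fell (15.4%) and 10 did not pass, with a median change of -0.18, as over all tested probes. Gabpa, the DNA-binding subunit of GABP, which is known to bind the N-box in rodents, went from 7.50 ± 0.09 to 6.66 ± 0.19 log2 intensity (SD, n = 4 each). Its fall by 0.83 ± 0.12 (adjusted p = 0.000641, limma) passed on leaving out each array and under cyclic loess, but not with median scaling (-0.17, adjusted p = 0.644). Without background correction it was -0.54 (adjusted p = 0.000708). Its partner Gabpb1 was above background on no array, and Etv4, another Ets factor, changed by -0.54 ± 0.34 (adjusted p = 0.225). Camk2b, a calcium-dependent kinase, fell by 0.64 ± 0.21 (adjusted p = 0.0381, limma). Its call was lost on removal of control replicate 1 (-0.59, 0.086), 3 (-0.67, 0.0582) or 4 (-0.51, 0.0882), and of treated replicate 1 (-0.51, 0.102), 2 (-0.64, 0.0787) or 4 (-0.65, 0.081). It did not pass with median scaling (-0.02, 0.964) or cyclic loess (-0.40, 0.197), nor without a detection filter (0.0798). Relative to the median change Camk2b did not pass either (-0.46, 0.139). Id2, an inhibitor of E-box binding factors, rose from 5.57 ± 0.31 to 8.35 ± 0.51 log2 intensity, by 2.79 ± 0.25 (adjusted p = 3.5e-05, limma), with its probe above background on 2 of the 4 control arrays. Without background correction the rise was 1.82 (adjusted p = 0.000113), and it was 1.94 (8.3e-05) in the deposited normalized table. Myog, the myogenic factor that drives receptor genes after denervation, had a change of 0.54 ± 0.31 (adjusted p = 0.192), Myod1 of -0.04 ± 0.14 (0.825) and Hdac4 of -0.39 ± 0.29 (0.311).

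Genes other than the members that are known to rise in denervated rodent muscle gave 3 rises, no falls and 12 probes that did not pass, of 15 tested. In all, 16.3% of tested probes were called higher. The median change of this list was -0.23, against -0.18 over all tested probes. The 3 were Gadd45a, a stress-induced growth arrest gene, by 1.04 ± 0.19 (adjusted p = 0.0025, limma), Cd24 by 0.72 ± 0.23 (adjusted p = 0.0368) and Fbxo30, a ubiquitin ligase subunit. No control array had Fbxo30 above background, so its probe passed the detection filter through the treated arrays alone. A rise of such a probe is partly built in by the filter. The level of Fbxo30 was 6.49 ± 0.17 in treated rats against 5.16 ± 0.078 in controls (SD, n = 4 each). With the background correction used here this is at least 1.95-fold higher, with the control level set to the higher of the probe's own signal and the lowest signal above background on each array. The fitted change of 1.32 was 0.74 without background correction, 0.84 with a normexp offset of 50 and 0.87 in the deposited normalized table, so that the bound does not carry over to those settings. With median scaling the changes of Gadd45a and Cd24 were 1.60 and 1.30. Cd24 did not pass without a detection filter (0.0809) or with array weights (0.0651). Cd24 lost its call when control replicate 2 (0.61, 0.0828), 3 (0.74, 0.0594) or 4 (0.74, 0.0632) was removed, and likewise for treated replicate 1 (0.58, 0.099), 2 (0.72, 0.0768) or 4 (0.63, 0.1). Runx1 (-0.08 ± 0.34, adjusted p = 0.863), Myh3, the embryonic myosin (-0.43 ± 0.67, 0.631), and the atrophy ligase Trim63 (0.52 ± 0.20, 0.0658) did not pass. The largest changes that did not pass were downward, in Ankrd1 (-1.46 ± 0.57, adjusted p = 0.0669, limma) and Tnfrsf12a (-1.13 ± 0.42, 0.0597).

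**Figure D4:**
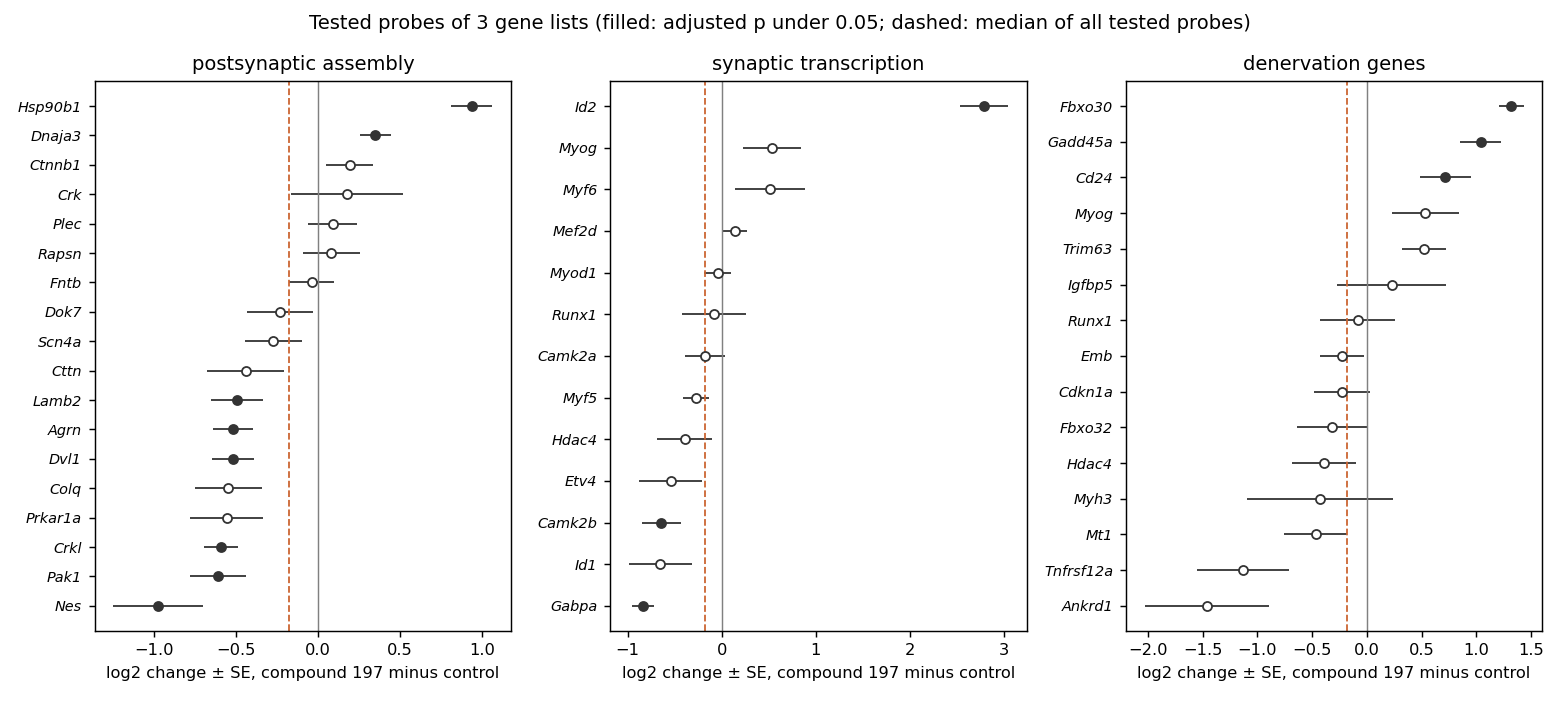
Log2 change ± SE (compound 197 minus control, n = 4 arrays each) of every tested probe in 3 gene lists, filled where the adjusted p was under 0.05, with a dashed line at the median change of all tested probes, -0.18. Filled points lie on both sides of 0 among postsynaptic and transcription genes, and only above 0 among the 15 denervation probes.

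Acetylcholine receptors of other types were near background: of 15 probes for neuronal and muscarinic subunits, 2 were tested and 8 were above background on no array. Chrnb2, a neuronal subunit, fell by 0.48 ± 0.17 (adjusted p = 0.0465, limma). On leaving out 1 array it passed only without control replicate 2 (-0.59, adjusted p = 0.017). Without control replicate 1, 3 or 4 adjusted p was 0.0931, 0.0532 and 0.077, and without compound 197 replicate 1 to 4 it was 0.11, 0.0941, 0.0666 and 0.106, with changes from -0.53 to -0.33. Chrnb2 also did not pass without background correction (-0.26, 0.0596), with a normexp offset of 50 (-0.29, 0.0545), median scaling (-0.22, 0.4), cyclic loess (-0.33, 0.0918) or no detection filter (0.0821). Nor did it pass relative to the median change (-0.29, 0.224). Chrna7 had a change of -0.19 ± 0.11 (adjusted p = 0.183). In acetylcholine turnover 3 of 7 probes were tested and none passed. Besides Colq these were Acly, which makes acetyl-CoA, and the choline transporter Slc44a1, at 0.20 ± 0.13 (adjusted p = 0.225) and 0.08 ± 0.15 (0.714). Acly passed with median scaling (0.90, 0.0169) and cyclic loess (0.47, 0.0246). Among enzymes of glycosylation whose loss causes congenital myasthenia in humans, 1 of 3 tested probes fell, against 24.2% of all. It was Dpagt1, by 0.54 ± 0.090 (adjusted p = 0.0018, limma), which stood at 0.04 with median scaling. Some genes stand on more than 1 list. Over these 6 lists together 50 different probes were tested, of which 6 rose and 10 fell, with a median change of -0.23. These are 12% higher and 20% lower, against 16.3% and 24.2% of all tested probes.

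Markers of the nerve, its sheath and other cells of muscle moved in both directions, and their counts are read against the 24.2% of all tested probes called lower and the 16.3% called higher. Of 6 tested Schwann cell probes 2 fell, Cdh19 by 1.86 ± 0.42 (adjusted p = 0.0079, limma) and Ngfr by 0.85 ± 0.18 (adjusted p = 0.00504), and 4 did not pass, among them S100b at 0.74 ± 0.48 (adjusted p = 0.245). The summed level of all 8 Schwann probes was 2592 to 3787 in controls and 1542 to 2716 in treated rats, and Sox10 and Mag were above background on no array. That sum follows most the brightest Schwann probe, Pmp22, at 11.05 log2 intensity in controls and 10.39 in treated rats. Pmp22 did not pass (-0.66 ± 0.29, adjusted p = 0.0971, limma). Such sums are no measure of the number of cells. Of 4 tested nerve probes 1 fell, Nefm by 0.54 ± 0.14 (adjusted p = 0.0152), while Gap43 (0.28 ± 0.39), Prph (0.15 ± 0.22) and Stmn2 (-0.03 ± 0.33) did not pass. The median change of the nerve list was 0.06, against -0.18 over all tested probes, and 7 of the 11 nerve probes, Nefl and Nefh included, were above background on no array. Their summed levels overlapped, at 545.6 to 661.1 in controls and 484.0 to 803.0 in treated rats. Of 6 tested satellite cell probes 0 fell and 2 rose, Vcam1 by 0.74 ± 0.17 (adjusted p = 0.00773, limma) and Sdc4 by 0.25 ± 0.089 (0.0493). Sdc4 was above background on no control array, so like Fbxo30 it passed the detection filter through the treated arrays alone. By the bound used for Fbxo30, Sdc4 was at least 1.009-fold higher. Summed levels were 1072 to 1708 in controls and 1044 to 1135 in treated rats. The brightest satellite cell probe was Itga7, at 9.71 log2 intensity in controls and 9.14 in treated rats, and the sum follows it most. Pax7 was above background on no array. Of 5 tested endothelial probes 1 fell and of 4 tested adipocyte probes 1 rose, while none of 8 fibroblast probes passed and no leukocyte probe was tested. Among the 12 fibre markers 3 rose and 9 did not pass: the fast myosins Myh2, by 4.36 ± 0.33, and Myh4, by 3.63 ± 0.26, and the fast troponin Tnni2, by 1.48 ± 0.12 (adjusted p = 9.68e-06, 5.84e-06 and 1.46e-05, limma). Those 9 included other genes of fast fibres. These were Tnnc2 (0.06 ± 0.09, adjusted p = 0.622, limma), Tnnt3 (-0.0049 ± 0.084, 0.968), Actn3 (0.08 ± 0.10, 0.588) and Pvalb (-0.29 ± 0.16, 0.17). Also among those 9, the slow myosin Myh7 ran from 6.24 to 14.65 log2 intensity in controls and from 9.08 to 14.97 in treated rats. Mb, myoglobin, ran from 11.19 to 14.14 in controls and from 13.34 to 14.39 in treated rats. Rats of the same group thus differed widely in these 2 probes. The part of these cells and fibre types in the falls of Chrne and Chrnd was not tested.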

How the data were processed

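Total RNA from thigh muscle of 8 rats was labelled as biotinylated cRNA with an Illumina TotalPrep kit, per the labels' protocols. The authors deposited non-normalized and normalized intensity values and detection p-values, per the file headers and names. For scanner software, detection method and normalization method: not given in the sources used here. Precision is limited by the number of arrays.

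Non-normalized intensities were corrected with limma's neqc (background inferred from detection p-values, offset 16), quantile normalized and put on a log2 scale. Groups were compared with limma 3.58.1 (lmFit, eBayes) in R 4.3.3, probe by probe, and figures were drawn with matplotlib 3.10.9. Of 22523 probes, 13793 have 1 annotated symbol, 0 have several and 8730 have none here. Symbols were updated for 13752 by Entrez number through RefSeq (GRCr8). The test was tested on simulated data. The members and lists were chosen with earlier results of these data known. Named genes were all members, the passing probes of each list other than cell type markers (or the 2 largest changes where none passed), and the 3 nearest patterns of each called member. Others were chosen after their values were seen. The limma p-values set each change against the spread between rats, moderated over all tested probes. No p-value is adjusted for cage or slide.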

Additional observations from a re-analysis of the deposited data

Results flagged for a closer look

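The level of Chrna1 in control replicate 1, at 7.72 log2 intensity, stood apart from the other controls, the nearest of which was at 6.16. The gap was 0.844 of the range of the 4 controls, above Dixon's critical value for a group of 4. It was the 1 such case among 50 groups of 4 arrays examined (25 probes in 2 groups), where chance gives about 1 in 20.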

How the results depend on the processing

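Tested probes past the threshold numbered 3999 with quantile normalization and 2477 with median scaling, and between 2571 (without compound 197 replicate 4) and 3873 on leaving out 1 array. The count was 2707 with cyclic loess. Of the members 2 passed; with median scaling 0 passed, with cyclic loess or without a detection filter 1 passed, and on leaving out 1 array 1 to 3 passed. Of the pathway probes 16 passed, against 10 with median scaling, 10 relative to the median change and 9 to 17 on leaving out 1 array. The 16 were 10 lower and 6 higher. With median scaling 0 were lower and 10 higher, so none of the pathway falls held there. Relative to the median change 3 were lower and 7 higher. Subunit pairs past the threshold numbered 0, and 0 to 0 on leaving out 1 array, which says nothing of stability, since at these sample sizes a lone pair cannot pass under any setting. With median scaling the changes of Crkl (0.0333), Lamb2 (0.0738), Dvl1 (0.0524), Pak1 (0.0173), Dpagt1 (0.0381) and Agrn (0.0564) turned above 0. The cause was not tested. The deposited normalized table gave 4021 calls and the same 2 for members; the brightest probe a gene gave 2696 of 7162. Same-numbered rats did not deviate together over all tested probes (correlations -0.13 to -0.04 between their deviations from the group means). This does not exclude a pairing that bears on single probes. With the replicate number as a block 3242 probes, 2 members, 15 pathway probes and 0 subunit pairs passed. These 15 are not a subset of the 16. Colq passed there (-0.55, adjusted p = 0.0238, limma). Calls lost there were those of Camk2b (adjusted p = 0.0672, limma), Lamb2 (0.0743), Pak1 (0.0626), Dnaja3 (0.0657) and Chrnb2 (0.0817). The block made the SE smaller for Chrna1, Chrnd and Chrne and larger for Chrnb1 and Chrng. A block allows no subunit pair to pass, since 4 pairs of rats give too few permutations. Probes above background differed by 1121 between the group means, and by 1605 at a detection limit of 0.01, chosen after seeing the data. Signal over background limits Chrng, Musk and Ncam1, which lay at or near the background limit.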
